A study of Homo sapiens with 6 samples.

Results

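The transcriptional effectors of the Hippo pathway and their closest regulators were followed at the RNA level in lung fibroblasts depleted of TAZ. The members were chosen by gene symbol, with earlier results of these data known. They are the coactivators TAZ (gene symbol WWTR1) and YAP (YAP1), and their DNA-binding partners TEAD1, TEAD2, TEAD3 and TEAD4. The kinases LATS1 and LATS2 and the angiomotins AMOTL1 and AMOTL2 complete the set. The members are 10 of the 23355 genes with a symbol in the deposited count table. All 10 were among the 14053 genes that passed the filter on low counts and were tested. The cells were HFL-1, a fibroblast line made from human fetal lung. They were transfected with a non-targeting siRNA (siNTC) or with either of the TAZ siRNAs siTAZ #1 and siTAZ #2, with Lipofectamine RNAiMAX as the carrier in all 3 groups, and total RNA was taken 48 h later. Each group had 2 libraries, which the series calls biological replicates, so there were 6 in all. The comparison of each siTAZ with siNTC asks which of these genes change when TAZ is lowered for a short time in a single cell line, and the comparison between the siRNAs shows where a change differs between reagents meant for the same target.

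In the Hippo pathway, the kinases STK3 and STK4 (MST2 and MST1) activate LATS1 and LATS2, which phosphorylate YAP and TAZ so that these are held in the cytoplasm or degraded. When the kinases are inactive, YAP and TAZ enter the nucleus, bind TEAD proteins and switch on genes of growth, matrix and cytoskeleton such as CTGF and CYR61. Angiomotins bind YAP and TAZ at junctions and on actin, and LATS2, AMOTL1 and AMOTL2 are themselves known as genes that YAP and TAZ can switch on. The activity of the pathway lies largely in phosphorylation and in the position of the proteins in the cell, and neither was measured by these RNA counts.

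The libraries held between 15648055 and 32078188 counts. In replicate 2 of siTAZ #1, the deepest library, counts were nearly missing for genes from RANGAP1 on chromosome 22 through X and Y. This region held 579 of the genes tested and 0 of the 10 members, but it raised the common dispersion of the fit to 0.0807, from 0.0163 without its genes. Fibroblast markers (9 of 9 in the table, COL1A1, COL1A2, COL3A1, VIM, THY1, PDGFRA, PDGFRB, DCN and LUM) summed to between 23174 and 34966 CPM (TMM-normalized counts on a common library size) in every library, epithelial markers to at most 5.84, endothelial markers to at most 47.4, nearly all of it TEK, and immune markers to at most 75.9, nearly all of it CD68. Of the epithelial, endothelial and immune markers, 6 of 8, 4 of 6 and 5 of 6 stayed under 1 CPM in all libraries. The summed fibroblast markers were higher in siNTC (34878 to 34966 CPM) than in siTAZ #1 (23174 to 24049) and siTAZ #2 (27180 to 28939), and their part in the results below was not tested. The sum is mostly collagen and VIM, and other markers on the list went the other way: PDGFRA was at 447 and 401 CPM in siNTC and 1370 and 1424 with siTAZ #1, THY1 was at 439.5 and 453 and then 602 and 656 with siTAZ #2, and COL1A1 was higher with siTAZ #2 than in siNTC in both libraries. In bulk libraries, fewer cells of a kind and less RNA per cell cannot be told apart.

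TAZ transcripts fell with both siRNAs, and YAP1 and LATS1 rose with both. AMOTL1 fell with both. TEAD1 and LATS2 rose with siTAZ #1, and TEAD2 and TEAD3 rose with siTAZ #2, while TEAD4 and AMOTL2 passed the test in neither comparison with siNTC. Changes were called with edgeR's quasi-likelihood test at a false discovery rate (FDR) under 0.05, adjusted over all genes tested. With siTAZ #1, 2 of the 10 members were lower and 4 were higher, where 9.78% of all genes tested were lower and 10.8% were higher. With siTAZ #2, 2 members were lower and 4 were higher, against 14.4% and 14.1% of all genes. The same member passed in the same direction with both siRNAs in 2 cases downwards (WWTR1, AMOTL1) and in 2 upwards (YAP1, LATS1), where 3.74% of all genes passed downwards with both and 5.49% upwards. The comparisons share the siNTC libraries, so that their calls are not independent. The median log2 fold change of the members was 0.08 with siTAZ #1 and 0.29 with siTAZ #2, beside 0.02 and 0.01 over all genes. WWTR1 is the target of both siRNAs, so its fall was set by the design and adds nothing to these counts. AMOTL1 was the only other member called lower in either comparison with siNTC. Without WWTR1, the median of the members was 0.14 with siTAZ #1 and 0.35 with siTAZ #2.

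Several of these calls rested on having both siNTC libraries. Over all genes too, a smaller share passed against siNTC when a siNTC library or either replicate of siTAZ #2 was left out. A larger share passed when either replicate of siTAZ #1 was left out. In edgeR's exact test on 4 libraries the share was smaller with siTAZ #1 and between the siRNAs, and larger with siTAZ #2. The gains and losses of calls below are therefore not particular to the members. With replicate 1 and then replicate 2 of siNTC left out, the log2 values with siTAZ #1 were 0.68 and 0.57 for YAP1 and 0.60 and 0.58 for TEAD1. They were 1.19 and 1.02 for LATS1, 0.71 and 0.79 for LATS2, and -0.43 and -0.39 for AMOTL1. With siTAZ #2 the values were 0.57 and 0.46 for YAP1, 1.02 and 0.91 for TEAD2, and 0.56 and 0.50 for TEAD3. The calls of WWTR1 with both siRNAs, and of LATS1 and AMOTL1 with siTAZ #2, held in both of these fits. Every other call against siNTC was lost without replicate 1 of siNTC, replicate 2 or both. Those of YAP1 and TEAD3 with siTAZ #2 were also lost without replicate 2 of siTAZ #2. Leaving out either replicate of siTAZ #1 kept every call against siNTC. It added those of TEAD4 and LATS2 with siTAZ #2, at -0.55 and 0.34 both times. The call of TEAD4 with siTAZ #1 was gained only without replicate 2, the library with the near-missing counts. Its value was then -0.76, and -0.30 without replicate 1. The direction of all called changes was kept in each of these settings.

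**Figure D1:**
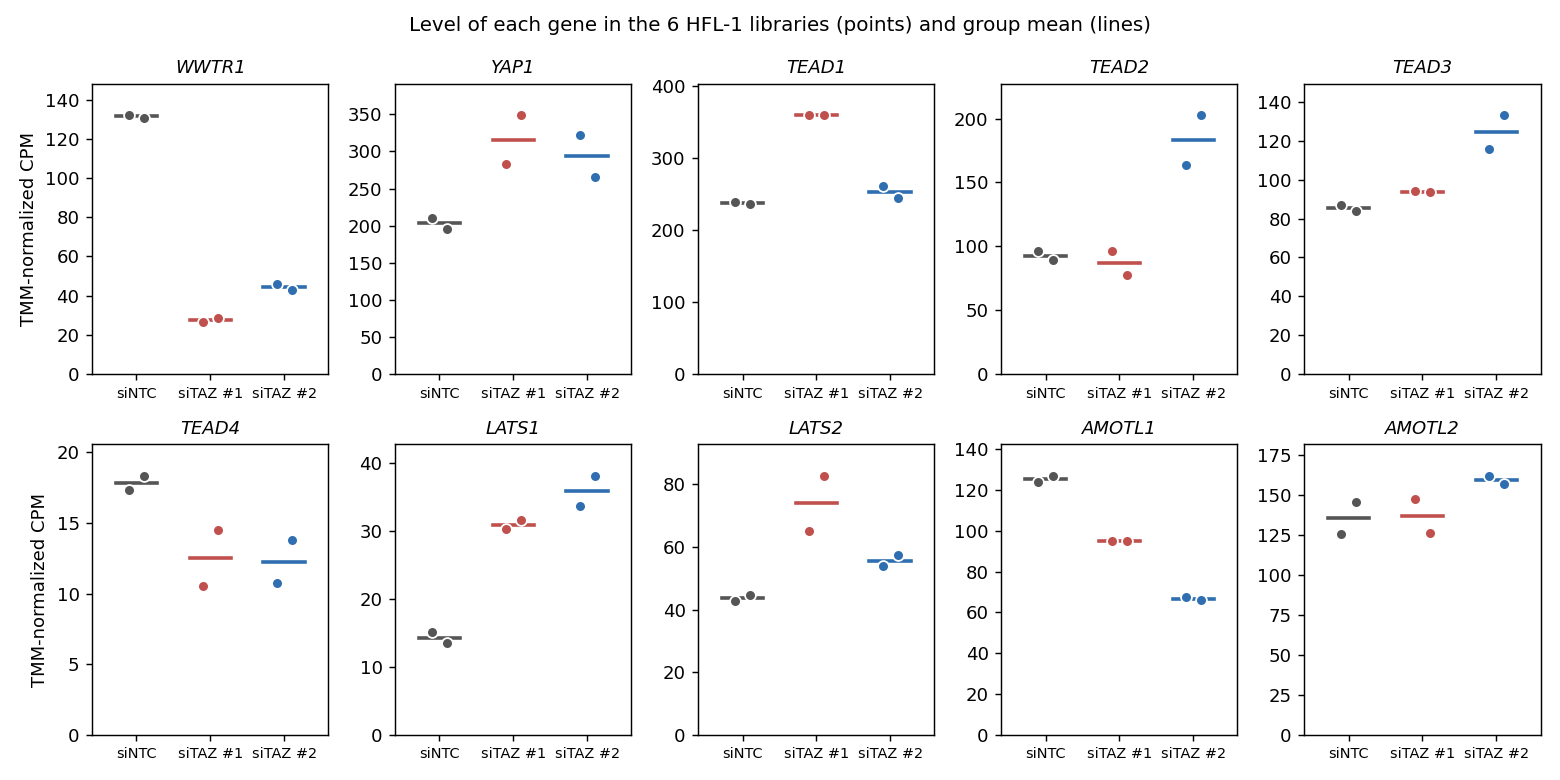
TMM-normalized CPM (y axis, from 0) of the 10 genes in siNTC, siTAZ #1 and siTAZ #2; each point is a library and each line the mean of the group's 2 libraries. WWTR1 sits near 132 CPM in siNTC and at 28.4 CPM or below in siTAZ #1, while LATS1 stands at most at 15.1 CPM in siNTC and at 30.3 CPM or above in the 4 siTAZ libraries.

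To compare levels between genes, CPM were divided by the length of the longest coding transcript. In siNTC, TEAD2 (38.0 ± 2.23 CPM per kb, SD, n = 2 libraries) and YAP1 (37.6 ± 2.03) stood highest, and their libraries overlapped. They were followed by TEAD3 (28.6 ± 0.75), AMOTL2 (27.9 ± 2.95), WWTR1 (26.1 ± 0.20) and TEAD1 (25.2 ± 0.17), where the AMOTL2 libraries spanned the values of TEAD3 and WWTR1. Below these came AMOTL1 (14.0 ± 0.24), TEAD4 (10.4 ± 0.44), LATS2 (7.88 ± 0.28) and LATS1 (1.94 ± 0.16), each apart from its neighbours in both libraries. The kinases LATS1 and LATS2 were thus the lowest of the 10 per length. This order depended on the transcript taken as the length, except for LATS2 and LATS1, and with the median coding transcript AMOTL2 came highest and WWTR1 next. Their median coding transcripts are short, with 779 bases for AMOTL2 and 826 for WWTR1, beside 4868 and 5037 for the longest. Which transcripts these cells make was not tested.

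The promoters of the members were read from RefSeq, because TEAD proteins, through which TAZ and YAP act, bind the hexamer GGAATG, which reads CATTCC on the other strand. Of the 10 members, 8 had an entry, with 12 windows of 300 bases that run from 250 bases before a transcript start to 50 after it. All 12 were found by exact match on GRCh37, the build of the deposited counts. The hexamer stood in 3 windows, those of YAP1, LATS2 and the downstream start of AMOTL2, while 14.0% of all 35116 RefSeq windows hold it. It was not found in the windows of WWTR1, TEAD2, TEAD3, LATS1 and AMOTL1, and TEAD1 and TEAD4 had no entry. The windows with the hexamer are printed below with that of the upstream start of LATS1, the member with the largest rise, which lacks it. They are the bases of chr11:101980928-101981177 on the plus strand and, on the minus strand, of chr13:21635701-21635975, chr3:134093290-134093539 and chr6:150039238-150039487 (GRCh37). All end at the base before the transcript start except that of LATS2, which runs on to base 25 of the transcript. Capitals mark the hexamer, which begins at base -162 in YAP1, at base 10 of the transcript in LATS2 and at base -69 in AMOTL2. A match of letters is a description and not a site of binding.
YAP1: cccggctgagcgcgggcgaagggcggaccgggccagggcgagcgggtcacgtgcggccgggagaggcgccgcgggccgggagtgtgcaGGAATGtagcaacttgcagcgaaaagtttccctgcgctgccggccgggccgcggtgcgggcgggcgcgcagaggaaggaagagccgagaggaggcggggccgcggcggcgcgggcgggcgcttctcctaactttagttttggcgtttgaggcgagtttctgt
LATS2: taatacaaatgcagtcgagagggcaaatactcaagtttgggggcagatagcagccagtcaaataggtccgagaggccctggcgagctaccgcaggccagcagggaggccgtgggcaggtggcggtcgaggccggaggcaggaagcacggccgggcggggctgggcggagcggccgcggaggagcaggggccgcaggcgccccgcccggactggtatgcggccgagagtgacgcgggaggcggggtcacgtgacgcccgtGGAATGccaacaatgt
AMOTL2: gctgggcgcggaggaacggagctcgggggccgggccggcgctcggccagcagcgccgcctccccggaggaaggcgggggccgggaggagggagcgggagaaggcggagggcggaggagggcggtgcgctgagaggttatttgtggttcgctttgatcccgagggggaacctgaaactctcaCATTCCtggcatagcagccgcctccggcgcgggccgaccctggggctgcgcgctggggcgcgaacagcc
LATS1: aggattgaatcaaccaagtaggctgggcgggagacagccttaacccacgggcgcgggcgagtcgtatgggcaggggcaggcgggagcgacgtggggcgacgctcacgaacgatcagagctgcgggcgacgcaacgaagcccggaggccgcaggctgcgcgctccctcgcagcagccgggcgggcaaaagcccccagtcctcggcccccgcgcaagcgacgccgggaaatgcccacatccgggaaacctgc
The genes with the hexamer did not share a response. YAP1 rose with both siRNAs and LATS2 with siTAZ #1, AMOTL2 passed no test, and LATS1, without it, rose with both.

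TAZ itself is encoded by WWTR1, on chromosome 3 from 149235022 to 149454501 (minus strand). WWTR1 was at 132 and 131 CPM in the siNTC libraries, at 26.4 and 28.4 with siTAZ #1, and at 46.1 and 43.1 with siTAZ #2. The groups were fully apart, and siTAZ #1 stood lowest. Thus 20.8% of the siNTC level remained with siTAZ #1 and 33.9% with siTAZ #2. WWTR1 fell by 2.26 on the log2 scale with siTAZ #1 (standard error (SE) 0.10, FDR 0.00062) and by 1.56 with siTAZ #2 (SE 0.10, FDR 0.00068), and both calls held under all 17 alternative settings. Tested directly, siTAZ #1 left less WWTR1 than siTAZ #2 did (log2 difference -0.70, 95% interval -0.94 to -0.46, FDR 0.0050), a call that edgeR's exact test on 4 libraries did not make (FDR 0.24, the highest of 17 alternatives, with 5.1e-06 the lowest). The antisense gene WWTR1-AS1 shares 756 of the 8353 exon bases of WWTR1. It had between 0 and 9 counts in a library, where WWTR1 had at least 409. The strand setting of the counting was not given, so reads from the shared bases cannot be assigned to a strand. The table also has a row named TAZ, which is the older symbol of tafazzin, a mitochondrial enzyme of cardiolipin remodelling encoded on the X chromosome from 153639860 to 153650065. That row had 344 and 257 counts in siNTC, 184 and 5 with siTAZ #1, and 329 and 265 with siTAZ #2. It lies in the region of near-missing counts of siTAZ #1 replicate 2, which holds the 5, and says nothing about the target of the siRNAs.

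YAP1, the paralog of TAZ with which it shares TEAD partners and many targets, lies on chromosome 11 from 101981178 to 102104155 (plus strand). Its level was 211 and 195 CPM in siNTC, 283 and 349 with siTAZ #1, and 323 and 266 with siTAZ #2. All 4 siTAZ libraries were above both siNTC libraries, and the siTAZ groups overlapped. YAP1 was at 156% of its siNTC level with siTAZ #1 (log2 fold change 0.64, SE 0.14, FDR 0.029) and at 145% with siTAZ #2 (0.54, SE 0.14, FDR 0.039). No difference between the siRNAs was detected (log2 difference 0.10, 95% interval -0.25 to 0.45, FDR 0.63). Both rises were near the threshold, and neither passed with a single siNTC library. Without replicate 2 of siTAZ #1, the rise with siTAZ #1 was 0.48 on the log2 scale (FDR 0.0056, and 2.5e-05 to 0.24 over the alternatives). With siTAZ #2, the call was also lost without either of its own replicates.

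The balance of the coactivators followed from both changes. Per kb of the longest transcript, WWTR1 made up 40.2% and 41.8% of the sum of WWTR1 and YAP1 in the siNTC libraries, 9.10% and 8.02% with siTAZ #1, and 13.3% and 14.8% with siTAZ #2. On this length YAP1 held the larger share in every library. The sum itself was 65.3 and 62.1 CPM per kb in siNTC, 57.6 and 70.3 with siTAZ #1, and 68.9 and 57.8 with siTAZ #2. On this scale the siTAZ libraries lay on both sides of the siNTC range. Both statements depended on the length. The longest coding transcripts are of similar length, 5037 bases for WWTR1 and 5401 for YAP1, whereas the median ones have 826 and 2393. Per kb of the median coding transcript, WWTR1 had the larger share in siNTC, 65.2% on average, and 20.2% and 30.6% with siTAZ #1 and siTAZ #2. The sum was then 248 and 240.0 CPM per kb in siNTC, 150.1 and 180.4 with siTAZ #1, and 191 and 163 with siTAZ #2, so that each of the 4 siTAZ libraries had a smaller sum than either siNTC library.

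**Figure D2:**
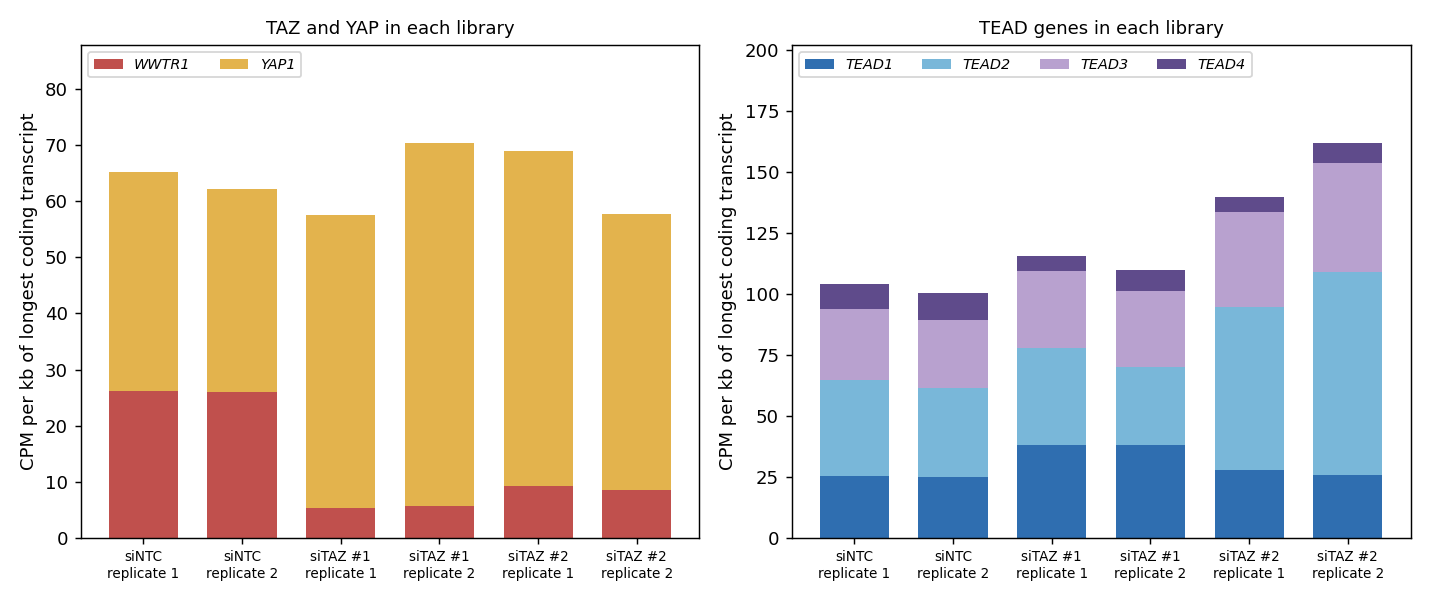
Stacked CPM per kb of the longest coding transcript (y axis, from 0) of WWTR1 and YAP1 (left) and of the 4 TEAD genes (right) in each of the 6 libraries. The WWTR1 part shrinks from 40.2% or more of the bar in siNTC to 14.8% or less with siTAZ while the height of the bar, on this length, lies on both sides of the siNTC bars (per kb of the median coding transcript it is lower in all 4 siTAZ libraries), and the TEAD bar is tallest with siTAZ #2, where TEAD2 makes up 48.0% and 51.4% of it.

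The TEAD genes encode the DNA-binding partners of TAZ and YAP, and they responded in different ways to the siRNAs. TEAD1, on chromosome 11 from 12695968 to 12966284, was at 238 and 236 CPM in siNTC, 359.6 and 359 with siTAZ #1, and 261 and 244 with siTAZ #2. The siTAZ #1 libraries stood well above the rest, and all 3 groups were apart. The log2 change was 0.60 with siTAZ #1 (SE 0.07, FDR 0.0051) and 0.09 with siTAZ #2 (SE 0.07, FDR 0.41). The direct test put TEAD1 higher with siTAZ #1 than with siTAZ #2 by 0.51 on the log2 scale (95% interval 0.33 to 0.69, FDR 0.0056). In edgeR's exact test on 4 libraries, neither the rise with siTAZ #1 (FDR 0.23) nor this difference (FDR 0.30) was called. The call of the rise was also lost without replicate 1 or 2 of siNTC.

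TEAD2, on chromosome 19 from 49843852 to 49865714, showed the opposite order. Its libraries were at 96.6 and 88.9 CPM in siNTC, at 96.7 and 77.8 with siTAZ #1, and at 164 and 203 with siTAZ #2. Only the siTAZ #2 libraries stood apart, at 198% of siNTC on average. The rise with siTAZ #2 was 0.98 on the log2 scale (SE 0.15, FDR 0.0070), whereas the value with siTAZ #1 was -0.09 (SE 0.15, FDR 0.71). The call of the rise with siTAZ #2 was lost without replicate 1 or 2 of siNTC, where its values were 1.02 and 0.91. TEAD2 was lower with siTAZ #1 than with siTAZ #2 by a log2 difference of -1.07 (95% interval -1.44 to -0.70, FDR 0.0052), the largest difference between the siRNAs among the members, and this call held under all 17 alternatives. The antisense gene CD37, which shares 319 of the 2980 exon bases of TEAD2, had 0 or 1 count in each library.

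TEAD3, on chromosome 6 from 35441374 to 35464856, was at 86.9 and 83.7 CPM in siNTC, at 94.1 and 93.6 with siTAZ #1, and at 116 and 133 with siTAZ #2. The 3 groups did not overlap and rose in that order. TEAD3 was higher with siTAZ #2 (log2 fold change 0.55, SE 0.10, FDR 0.011), while the value of 0.14 with siTAZ #1 did not pass (SE 0.10, FDR 0.36). The siRNAs differed by -0.41 (95% interval -0.65 to -0.17, FDR 0.026), but with an offset for GC content the difference was -0.21 (FDR 0.11, and 0.0065 to 0.44 over the alternatives) and the call was lost. It was also lost without replicate 1 or 2 of siNTC and without replicate 2 of siTAZ #2.

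TEAD4, on chromosome 12 from 3068496 to 3149842, was the least abundant TEAD gene. Its libraries were at 17.3 and 18.4 CPM in siNTC, 10.5 and 14.5 with siTAZ #1, and 10.8 and 13.8 with siTAZ #2. The 4 siTAZ libraries lay below both siNTC libraries, but the log2 values of -0.51 (SE 0.23, FDR 0.18) and -0.54 (SE 0.23, FDR 0.13) did not pass the test. With replicate 2 of siTAZ #1 left out both passed, at -0.76 and -0.55. With replicate 1 left out the values were -0.30 and -0.55, and only that with siTAZ #2 passed. In edgeR's exact test on 4 libraries the FDRs were 0.59 and 0.025. With as few as 163 counts in a library, TEAD4 had the widest interval of the 10 genes.

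As a group, the TEAD transcripts summed to 104 and 100.2 CPM per kb in siNTC, 115 and 109.9 in siTAZ #1, and 139.8 and 162 in siTAZ #2. The makeup of this sum differed between the siRNAs. TEAD1 took 24.3% and 24.98% in siNTC, 33.1% and 34.7% with siTAZ #1, and 19.8% and 16.0% with siTAZ #2. TEAD2 took 38.0% and 36.4% in siNTC, 34.3% and 29.0% with siTAZ #1, and 48.0% and 51.4% with siTAZ #2. TEAD1 was thus the leading TEAD transcript in replicate 2 of siTAZ #1, and TEAD2 in the other 5 libraries. The share of TEAD3 stayed between 27.3% and 28.5% in all libraries. The order of TEAD1 and TEAD2 depended on the length used: per kb of the median coding transcript, TEAD1 stood at 77.1 CPM and TEAD2 at 42.8 in siNTC, and at 82.0 and 84.6 with siTAZ #2.

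LATS1 and LATS2 encode the kinases that phosphorylate and restrain YAP and TAZ. LATS1, on chromosome 6 from 149979289 to 150039241 (minus strand), was at 15.1 and 13.4 CPM in siNTC, at 30.3 and 31.5 with siTAZ #1, and at 33.7 and 38.1 with siTAZ #2. Every siTAZ library was at least at the level of 30.3 CPM and far above both siNTC libraries. LATS1 reached 217% of siNTC with siTAZ #1 (log2 fold change 1.11, SE 0.14, FDR 0.0051) and 252% with siTAZ #2 (1.33, SE 0.14, FDR 0.0021), the largest rise of a member in each comparison. The rise with siTAZ #2 passed under all 17 alternatives and that with siTAZ #1 under all but leaving out replicate 2 of siNTC (FDR 0.060, with 7.9e-08 the lowest). The siRNAs were not found to differ (log2 difference -0.22, 95% interval -0.55 to 0.12, FDR 0.29).

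LATS2, on chromosome 13 from 21547175 to 21635725 (minus strand), was at 42.6 and 44.8 CPM in siNTC, at 65.0 and 82.8 with siTAZ #1, and at 53.8 and 57.4 with siTAZ #2. Again all siTAZ libraries were above both siNTC libraries, and siTAZ #1 was above siTAZ #2. The rise passed with siTAZ #1 (log2 fold change 0.76, SE 0.14, FDR 0.018), and the value with siTAZ #2 was 0.35 (SE 0.14, FDR 0.12). Their difference of 0.41 (95% interval 0.06 to 0.76) had an FDR of 0.082. It turned on the siTAZ #1 library used, with 0.23 and no call without replicate 2 of siTAZ #1 and 0.58 and a call without replicate 1. With replicate 2 left out, the rise with siTAZ #1 was 0.57 and the value with siTAZ #2 was 0.34. With replicate 1 left out they were 0.92 and 0.34, and both passed in each of these fits. Per kb, LATS1 made up 21.1% and 18.4% of the LATS transcripts in siNTC, 26.0% and 22.3% with siTAZ #1, and 32.0% and 33.3% with siTAZ #2, so that LATS2 remained the more abundant kinase transcript in every library. With the median coding transcript as the length, the means with siTAZ #2 were 10.5 for LATS1 and 10.03 for LATS2.

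AMOTL1 and AMOTL2 encode junction scaffolds of the angiomotin family that bind YAP and TAZ. AMOTL1, on chromosome 11 from 94439597 to 94609913 (plus strand), was at 124 and 127 CPM in siNTC, at 95.04 and 95.2 with siTAZ #1, and at 67.4 and 66.1 with siTAZ #2. The groups were apart, and here siTAZ #2 stood lowest although WWTR1 was lowest with siTAZ #1. AMOTL1 fell to 75.7% of siNTC with siTAZ #1 (log2 fold change -0.40, SE 0.08, FDR 0.018) and to 53.1% with siTAZ #2 (-0.91, SE 0.08, FDR 0.0012). The direct difference between the siRNAs was 0.51 (95% interval 0.32 to 0.70, FDR 0.0062), a call that edgeR's exact test on 4 libraries did not make (FDR 0.30). The fall with siTAZ #2 passed under all 17 alternatives, and that with siTAZ #1 was lost without replicate 1 or 2 of siNTC.

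AMOTL2, on chromosome 3 from 134074189 to 134094321 (minus strand), was at 126 and 146 CPM in siNTC, at 148 and 126 with siTAZ #1, and at 162 and 157 with siTAZ #2. The siTAZ #1 libraries overlapped siNTC and the siTAZ #2 libraries lay above it. No change passed the test, with log2 values of 0.01 (95% interval -0.27 to 0.30, FDR 0.95) and 0.23 (-0.05 to 0.52, FDR 0.19). The remaining angiomotin, AMOT, lies on the X chromosome within the region of near-missing counts. Its 307 and 258 counts in siNTC, 143 and 38 with siTAZ #1, and 320 and 210 with siTAZ #2 gave no call (FDR 0.18 and 0.77).

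**Figure D3:**
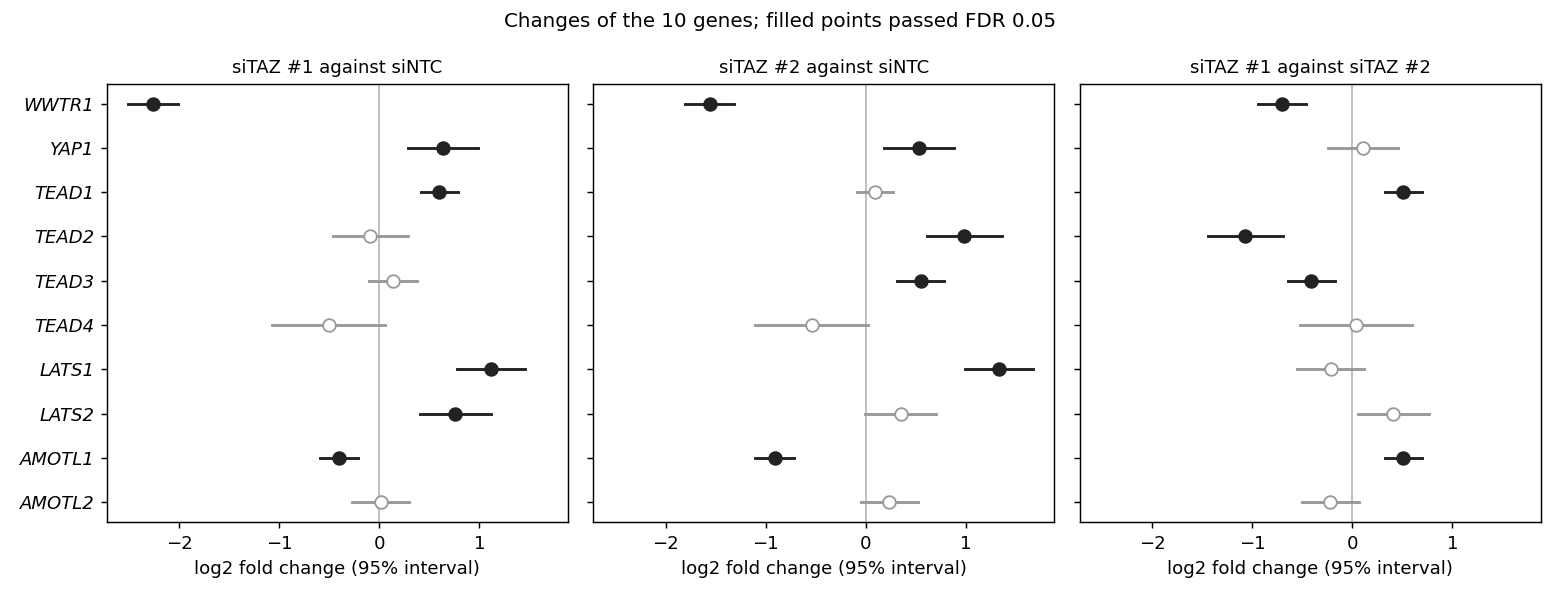
Log2 fold changes (x axis) of the 10 genes (y axis) with siTAZ #1 and siTAZ #2 against siNTC and between the siRNAs; bars are 95% intervals of edgeR's quasi-likelihood fit and filled points passed an FDR of 0.05. WWTR1 at -2.26 and -1.56 is the largest change on the left, LATS1 the largest on the right, and TEAD2 at -1.07 differs most between the siRNAs.

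Between siTAZ #1 and siTAZ #2, 3 members were lower with siTAZ #1 (WWTR1, TEAD2 and TEAD3) and 2 were higher (TEAD1 and AMOTL1), where 13.4% and 15.2% of all genes were. TEAD1 and TEAD2 therefore moved apart: TEAD1 rose with the siRNA that lowered WWTR1 more, and TEAD2 rose with the other. In YAP1, TEAD1, TEAD3, LATS1 and LATS2 all 4 siTAZ libraries were above both siNTC libraries, which held for 18.6% of all genes tested. WWTR1, TEAD4 and AMOTL1 were below in all 4, as were 17.5% of all genes.

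Besides the members, 64 further pathway genes in 5 lists were examined, of which 59 passed the filter. With siTAZ #1, 9 were lower and 9 were higher, and with siTAZ #2, 6 were lower and 12 were higher. These are shares of 15.3% and 15.3%, and of 10.2% and 20.3%, beside the shares of all genes given above. The median log2 fold change of the 59 was -0.04 with siTAZ #1 and -0.02 with siTAZ #2. With a library left out, the counts of calls moved up or down as the share of all genes did.

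In the kinase module and its activators, 19 genes were tested. MAP4K4, a kinase that can activate LATS in place of MST1 and MST2, rose with both siRNAs, from 393 and 440.2 CPM in siNTC to 939 and 988 with siTAZ #1 (log2 fold change 1.21, FDR 0.0017) and 499 and 559.8 with siTAZ #2 (0.35, FDR 0.048). MAP4K3, of the same family, rose by 0.65 and 0.58 (FDR 0.032 and 0.035). WWC1 (KIBRA), a scaffold that promotes LATS phosphorylation, fell from 26.8 and 20.9 CPM in siNTC to 12.6 and 13.7 with siTAZ #1 (-0.85, FDR 0.032) and 10.5 and 8.82 with siTAZ #2 (-1.30, FDR 0.0068). The siTAZ libraries of all 3 genes were apart from siNTC, and the calls of MAP4K3, of MAP4K4 with siTAZ #2 and of WWC1 with siTAZ #1 were each lost without either siNTC library.

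Among 17 junction and polarity genes, siTAZ #1 lowered 4 and raised 2, and siTAZ #2 lowered 4 and raised 6. With siTAZ #1 these are 23.5% and 11.8% of the list, beside 9.78% and 10.8% of all genes. With siTAZ #2 they are 23.5% and 35.3%, beside 14.4% and 14.1%. DCHS1, an atypical cadherin that binds FAT4, rose with both (log2 fold change 0.50, FDR 0.018, and 1.01, FDR 0.0016), as did the polarity protein gene SCRIB (0.58, FDR 0.025, and 0.82, FDR 0.0064), though SCRIB passed in neither with the GC offset. VGLL4, which competes with YAP and TAZ for TEAD proteins, rose with both (0.50, FDR 0.048, and 0.49, FDR 0.041) and was near the threshold each time. The calls of these 3 genes with siTAZ #1 were lost without either siNTC library, as was that of VGLL4 with siTAZ #2, and the call of SCRIB with siTAZ #2 was lost without replicate 1 of siNTC. In the 10 genes of retention and degradation, 14-3-3 proteins and the casein kinases and ubiquitin ligase subunits that mark YAP and TAZ for destruction, and in the 11 of the STRIPAK phosphatase complex, which holds MST kinases inactive, 0 genes passed in the same direction with both siRNAs, beside the 3.74% and 5.49% of all genes that passed downwards and upwards with both, which is little to read from in lists of this size.

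**Figure D4:**
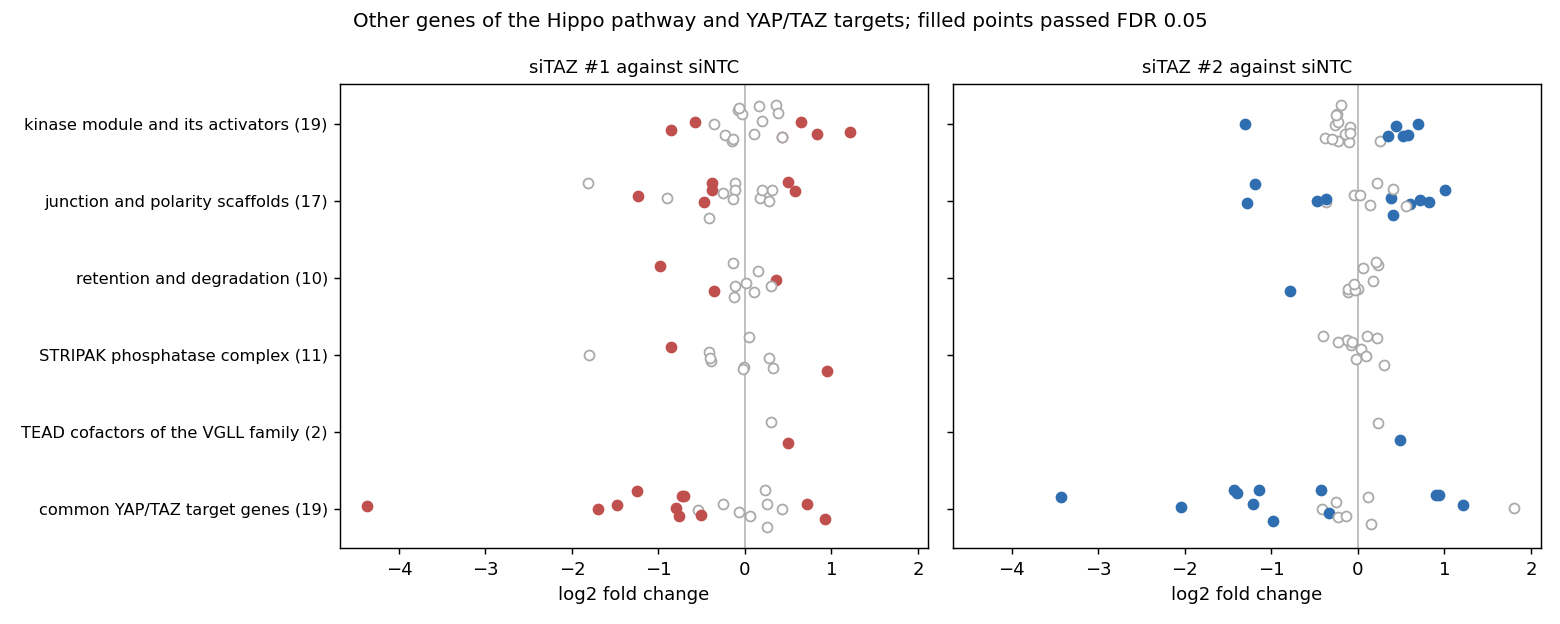
Log2 fold change (x axis) of each tested gene of the 5 pathway lists and of the common YAP/TAZ target genes (y axis, number tested in brackets) with siTAZ #1 (left) and siTAZ #2 (right) against siNTC; filled points passed an FDR of 0.05. The target genes reach furthest to the left, down to -4.37 for IGFBP3, and the STRIPAK list has 0 filled points with siTAZ #2.

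Of 19 common target genes of YAP and TAZ, siTAZ #1 lowered 9 and raised 2, and siTAZ #2 lowered 9 and raised 3. With siTAZ #1 these are 47.4% and 10.5% of the list, beside 9.78% and 10.8% of all genes. With siTAZ #2 they are 47.4% and 15.8%, beside 14.4% and 14.1%. The raised shares were thus close to those of all genes. As described above, the share of all genes that passed was smaller with a siNTC library left out, and fewer genes of this list passed as well. The median change over the list was -0.51 on the log2 scale with siTAZ #1 and -0.33 with siTAZ #2. The list was compiled with earlier results of these data known and is no independent evidence of direction. IGFBP3, which encodes a carrier of insulin-like growth factors, was at 310.4 and 344 CPM in siNTC, 14.6 and 17.1 with siTAZ #1, and 33.5 and 27.0 with siTAZ #2, a log2 fold change of -4.37 (FDR 0.00043) and -3.43 (FDR 0.00037). CTGF, a secreted matricellular protein, fell from 1282 and 1235 CPM to 487 and 415 under siTAZ #1 (-1.48, FDR 0.0010) and 301 and 309.6 under siTAZ #2 (-2.04, FDR 0.00050). The groups of both genes were apart, in opposite order of the siRNAs. Of the 7 target genes lower with both siRNAs, others were CRIM1 (-1.70 and -1.40), the receptor tyrosine kinase gene AXL (-0.76 and -1.14), DOCK5 (-1.25 and -1.43) and MYOF (-0.51 and -1.22). F3, which encodes tissue factor, was the only target gene that was higher with both, from 508 and 439 CPM in siNTC to 756 and 806 with siTAZ #1 (0.72, FDR 0.0065) and 1121 and 1079 with siTAZ #2 (1.22, FDR 0.0011). Its call with siTAZ #1 was lost without replicate 2 of siNTC, and that of MYOF with siTAZ #1 without either siNTC library.

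The profile of WWTR1 over the 6 libraries was compared with that of 12004 genes tested with a mean count of at least 50, as the root mean square difference of log2 levels centred on siNTC. CAV1 (0.10), which encodes the caveolar coat protein caveolin-1, was nearest. CCBE1 (0.16), the mitochondrial PEPCK gene PCK2 (0.20), the heparan sulfatase gene SULF1 (0.23) and AOX1 (0.26) came next. CAV1 was at log2 values of -2.16 and -1.64 from siNTC with siTAZ #1 and siTAZ #2. The nearest members, AMOTL1 (1.14) and TEAD4 (1.17), came only at places 1226 and 1440 among all genes tested. LATS1 was the farthest of the members (2.57).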

How the data were processed

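Total RNA of HFL-1 cells was sequenced on an Ion Proton. The authors used TMAP for alignment to hg19 and HTSeq 0.6.1 for counting, and the deposited table holds raw read counts of 6 libraries that were not normalized. The counting mode and strand setting were not given in the sources used here. Left out were 13 entries with a date in place of a symbol, between 0.0458% and 0.0506% of a library's counts. Counts were analysed in R 4.3.3 with edgeR 4.0.16: filterByExpr by group, TMM factors, a quasi-likelihood fit of all 6 libraries (3 residual degrees of freedom), and Benjamini-Hochberg adjustment over 14053 genes at an FDR of 0.05. SEs were derived from the F statistic, and intervals have a confidence level of 0.95. With 2 libraries a group no permutation test can go below p = 0.333. The fits were run on simulated counts with the same dispersion for every gene, which does not show how calls behave in these data. Replicates of a group differed by more than sampling noise (mean chi-square per gene 5.78 to 26.8). Positions and transcript lengths came from GENCODE v44lift37 on GRCh37, where 21478 of 23368 symbols were matched, 1922 of them by an older symbol; promoters came from RefSeq.

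The members and gene lists were chosen with earlier results of these data known. Named were all members, AMOT, the TAZ row, list genes called the same way with both siRNAs (up to 6 a direction and list, by the larger FDR) and the 5 genes nearest to WWTR1 in profile (pseudocount 0.5 CPM). A gene that this rule names is not reported here. CD37 and WWTR1-AS1 were named after their values were seen. Alternatives were scaling by library totals, upper quartiles or RLE, no filter, a mean count of at least 50, DESeq2 1.42.0, edgeR's exact test, a fit of 4 libraries, a replicate block, a GC offset, leaving out the region from RANGAP1 to the end of Y or each library, and the median transcript as the length.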

Additional observations from a re-analysis of the deposited data

How the results depend on the processing

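For the 10 members, 30 log2 fold changes were recomputed in 510 alternative values, of which 447 kept their direction and side of the threshold, 35 lost a call, 13 gained one and 15 changed sign; 9 of the 30 kept theirs throughout. The sign changes were of values near 0 that passed in no fit. AMOTL2 with siTAZ #1 was -0.018 with upper-quartile factors, -0.011 without a filter, -0.0011 in the exact test, -0.00095 in the fit of 4 libraries and -0.0072 without the region from RANGAP1 to the end of Y, and between -0.11 and 0.12 with a library left out. Between the siRNAs, TEAD4 was -0.00092 with upper-quartile factors and between -0.21 and 0.25 with a library left out, and YAP1 was -0.018 with the GC offset and between -0.054 and 0.25 with a library left out. TEAD2 with siTAZ #1 was between -0.25 and 0.060 with a library left out, the latter without replicate 2 of siTAZ #1. The cause of these shifts was not tested.

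In edgeR's exact test on 4 libraries, 1 member was lower and 1 higher with siTAZ #1. Between the siRNAs 1 was lower and 0 were higher, and with siTAZ #2 3 were lower and 5 higher. The share of all genes called moved the same way against the fit of all 6 libraries. It was smaller with siTAZ #1 and between the siRNAs, and larger with siTAZ #2. The losses and gains in the exact test are therefore not particular to the members. With a library left out, the number of members called rose or fell, where it changed, as the share of all genes did. A lone library is then assumed to vary like the other groups. Same-numbered replicates of siNTC and of the siTAZ groups did not deviate together (correlations of -0.01 and 0.02 over 11529 genes). This gave no sign that the numbers pair samples, though 2 libraries a group cannot exclude it. With the replicate block, 1 member was lower with siTAZ #1, the calls of YAP1 with both siRNAs, of AMOTL1 with siTAZ #1 and of TEAD3 between the siRNAs were not made, and no other call of a member changed. For the siTAZ groups the correlation was -0.29, and a crossed block, chosen after seeing the data, called 3 members lower and 2 higher between the siRNAs.

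With the median coding transcript as the length, the places in siNTC were AMOTL2 1, WWTR1 2, YAP1 3, TEAD1 4, TEAD2 5, TEAD3 6, TEAD4 7 and AMOTL1 8, and WWTR1 was 65.2%, 20.2% and 30.6% of the coactivator sum in siNTC, siTAZ #1 and siTAZ #2. That sum was 67.7% and 72.5% of siNTC with siTAZ #1 and siTAZ #2, in place of 100.4% and 99.4%. Calls of the 59 pathway genes ranged from 2 to 15 lower and 1 to 15 higher with siTAZ #1 and from 3 to 11 and 1 to 17 with siTAZ #2; those of the 19 targets ranged from 4 to 9 and 0 to 4, and from 7 to 11 and 2 to 4. The 15 list genes called with both siRNAs changed sign in 0 of 510 values and lost a call in 79. The share of all genes that passed also moved between the settings. The scalings moved the median of all genes by at most 0.06 on the log2 scale. The members had at least 163 counts in every library.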
